A study of Mus musculus with 6 samples.

Results

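The NMDA receptor subunit genes are the 7 mouse genes Grin1, Grin2a, Grin2b, Grin2c, Grin2d, Grin3a and Grin3b, taken by symbol from the 55604 genes counted in each library. The libraries were made from brain RNA of C57BL/6 mice, 3 after intraperitoneal injection of 4-aminopyridine (4-AP) and 3 untreated (control). 4-AP, a blocker of voltage-gated potassium channels, serves as a convulsant in this model of status epilepticus, in which seizures do not stop by themselves. In both groups RNase R, an exonuclease that removes linear RNA and spares circles, had digested the total RNA, and reads were counted per gene, so a value sums the circular and the remaining linear RNA of that gene. The labels do not give the brain region, the dose, the age of the mice, the time from injection to sampling, or whether animals were pooled.

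NMDA receptors are glutamate-gated cation channels that let calcium into the cell when glutamate binds while the membrane is depolarised, because depolarisation lifts a magnesium block of the pore. They are tetramers: the obligatory GluN1 subunit, encoded by Grin1, binds the co-agonist glycine or D-serine, the GluN2 subunits (Grin2a to Grin2d) bind glutamate and set the kinetics, and the GluN3 subunits (Grin3a and Grin3b) bind glycine and lower calcium entry. In the forebrain GluN2B dominates early in life and GluN2A increases during maturation, whereas GluN2C is known from cerebellum, thalamus and astrocytes and GluN2D from diencephalon, brainstem and interneurons. The receptor carries excitation in seizures and is a route of calcium-driven neuronal injury.

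The subunits are paralogs, and the coding stretch for the gate of the channel, in the third membrane segment, shows how far the 3 kinds of subunit differ where the protein is most alike. Each line below gives 60 bases of coding sequence, 5′ to 3′, from GENCODE M21 transcripts on mm10, for the GluN1 gene, 1 GluN2 gene and both GluN3 genes; capitals mark the bases that differ from Grin1 at the same place.
Grin1: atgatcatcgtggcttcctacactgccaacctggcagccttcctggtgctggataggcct
Grin2c: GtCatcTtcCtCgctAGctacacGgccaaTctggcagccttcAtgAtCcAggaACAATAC
Grin3a: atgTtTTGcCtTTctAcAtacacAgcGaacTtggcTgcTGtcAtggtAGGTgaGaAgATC
Grin3b: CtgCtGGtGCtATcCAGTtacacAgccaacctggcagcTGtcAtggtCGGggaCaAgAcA
Against Grin1, 20 of the 60 bases differed in Grin2c, 25 in Grin3a and 23 in Grin3b. The stretches lie in single exons at chr2:25297181-25297240 (Grin1, minus strand), chr11:115253731-115253790 (Grin2c, minus), chr4:49770452-49770511 (Grin3a, minus) and chr10:79974621-79974680 (Grin3b, plus). Over whole annotated transcripts, the longest run of identical bases was 34, between Grin2b and Grin2c, and the shortest longest run of the 21 pairs was 13; Grin2a and Grin2b shared at most 24.

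On mm10, Grin2a spans chromosome 16 from 9567898 to 9995560 with 17933 bases of merged exons, and Grin2b chromosome 6 from 135713233 to 136173511 with 24842 bases. Grin1 lies on chromosome 2 (25291181 to 25319187) and shares 13.5% of its exonic bases with the antisense gene Grin1os, which had 4 to 10 counts per library. Grin2c is on chromosome 11 (115249169 to 115267243), Grin2d on chromosome 7 (45831883 to 45878378) and Grin3a on chromosome 4 (49661611 to 49845744). Grin3b, on chromosome 10 (79970715 to 79977190), shares 32.1% of its exonic bases with Tmem259 on the other strand. The strand setting of the counting is not given in the sources used here, so reads of such antisense pairs cannot be told apart.

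Total counts ran from 1507882 to 2721287 in the 4-AP libraries and from 2355610 to 3409055 in the controls, and the 7 members held 2063 to 4229 and 4497 to 7116 of them, respectively. The first principal component of all tested genes separated the 3 controls (19.8 to 21.0) from the 4-AP libraries (-39.8 to -6.45). The labelled tissue, brain, was checked with pan-neuronal, astrocyte and oligodendrocyte markers, which summed to at least 2928, 2265 and 2537 CPM in every library (CPM is the read count per 1000000 of the scaled library size). Region markers differed between libraries of 1 group: the summed striatal markers were at 414, 1354 and 2323 CPM in the control replicates 1, 2 and 3.

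Of the 6 members with enough reads to test, Grin2a fell in 4-AP brain, and no other member passed the test. Grin2a, which encodes GluN2A, was at 373, 321 and 301 CPM in the 4-AP replicates 1, 2 and 3 and at 586, 511 and 534 in the control replicates. Every 4-AP library lay below every control. The group means were 332 ± 37.0 and 544 ± 38.1 CPM (SD, n = 3 each). The fitted log2 fold change was -0.71 (SE 0.14, 95% interval -1.002 to -0.42), so that Grin2a fell by 39.0%. It passed edgeR's quasi-likelihood test at an adjusted p of 0.0146, with the Benjamini-Hochberg method over 11388 genes, and ranked 35 by p among them. Of all 11388 genes, 0.843% passed in either direction, and 0.509% were lower. In tissue RNA, fewer cells that express a gene and less RNA per cell cannot be told apart. A count here sums circular RNA and the linear RNA left by RNase R, so which of them differed cannot be told either. Without 4-AP replicate 3 the adjusted p of Grin2a was 0.134 and without control replicate 3 it was 0.0671, by the same edgeR test, with log2 fold changes of -0.65 and -0.73.

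Grin1, the obligatory subunit gene, had a smaller difference in the same direction. It was at 203, 165 and 159 CPM in the 4-AP replicates and at 269, 214 and 272 in the controls, without overlap between the groups. The means were 175 ± 23.9 and 252 ± 32.7 CPM (SD, n = 3 each), with a fitted log2 difference of -0.52 (SE 0.15, 95% interval -0.84 to -0.20), which did not pass (adjusted p = 0.103 by edgeR's test). It passed edgeR's test with total counts as the only scaling (-0.74, adjusted p = 0.022) and with no filter on low counts (-0.55, adjusted p = 0.0471). With total counts only, the median log2 fold change of all genes was -0.22, beside -0.008 under the main settings.

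Grin2b, which encodes GluN2B and carried more reads than any other member, was at 880, 787 and 804 CPM in the 4-AP replicates and at 962, 964 and 1024 in the controls. These groups did not overlap either, but the distance was small. Its log2 fold change was -0.26 (SE 0.13, 95% interval -0.53 to 0.02; adjusted p = 0.416 by edgeR's test), and the interval of this difference included 0.

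The other glutamate-binding subunits carried fewer reads. Grin2c, for GluN2C, was at 56.1, 64.3 and 63.6 CPM in the 4-AP replicates and 65.4, 75.0 and 71.4 in the controls, with a log2 fold change of -0.20 (SE 0.18, 95% interval -0.56 to 0.16). Grin2d, for GluN2D, was at 10.4, 11.4 and 18.3 CPM after 4-AP and 25.1, 3.89 and 14.7 in the controls. The controls of Grin2d thus lay on both sides of all 4-AP values, and its log2 fold change of -0.13 (SE 0.60) had an interval of -1.50 to 1.23. Its sign turned to 0.60 without control replicate 1, the library with the highest value, and neither Grin2c nor Grin2d passed (adjusted p = 0.689 and 0.959 by edgeR's test).

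The glycine-binding subunit gene Grin3a, for GluN3A, was the 1 tested member with a positive log2 fold change. Its 4-AP replicates were close together, at 180, 163 and 162 CPM, and all lay above the controls at 139, 77.3 and 91.0. The means were 168 ± 10.01 and 102 ± 32.4 CPM (SD, n = 3 each), and the log2 fold change of 0.72 (SE 0.19, 95% interval 0.33 to 1.10) did not pass (adjusted p = 0.0643 by edgeR's test). Without control replicate 1 it was 1.01 and passed (adjusted p = 0.00321 by edgeR's test). It also passed with DESeq2 (0.74, adjusted p = 0.0202) and with no filter on low counts (0.69, adjusted p = 0.00935 by edgeR's test).

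Grin3b, for GluN3B, which is known mainly from motor neurons of brainstem and spinal cord, had 5 counts in control replicate 1 and 0 in the other 5 libraries. A count of 0 allows up to 3 counts, which is 0.778 to 2.19 CPM per library, so a difference in Grin3b was not detectable at this depth. Since Tmem259 had 92 to 281 counts per library and overlaps it, those 5 reads cannot be assigned to Grin3b with certainty.

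Across the 6 tested members, 5 had groups that did not overlap, 4 lower and 1 higher in 4-AP brain. Among all genes tested, 18.8% had groups that did not overlap, 10.4% lower and 8.36% higher. The median log2 fold change of the 6 was -0.23, beside -0.008 over all genes. Summed over the 7 members, the 4-AP libraries were at 1702, 1511 and 1508 CPM and the controls at 2048, 1846 and 2007.

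**Figure D1:**
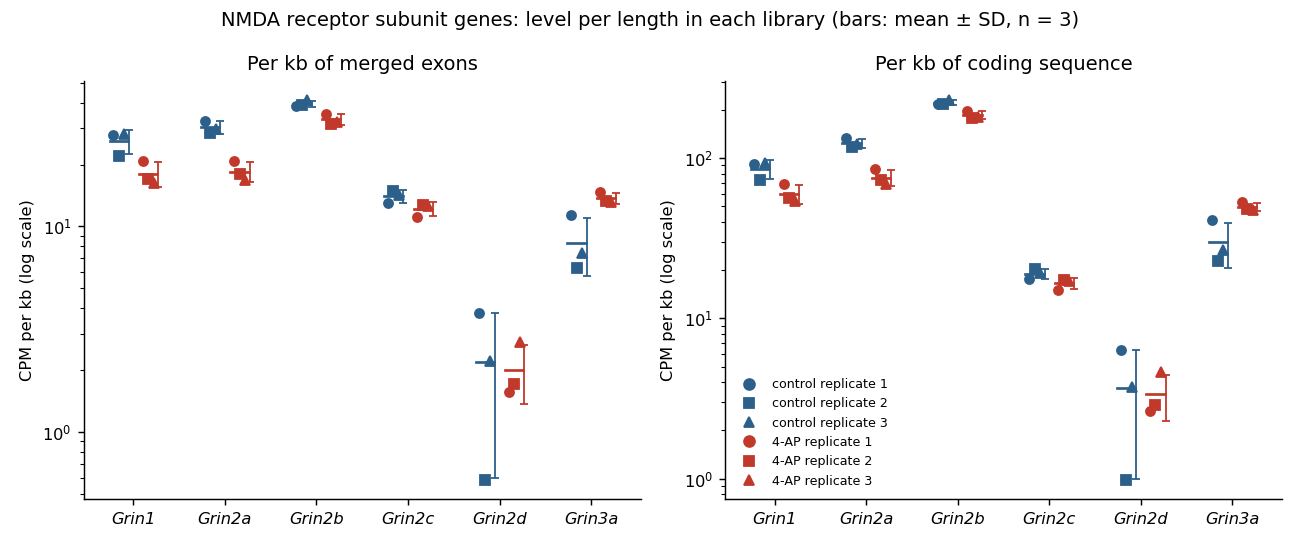
Level of each NMDA receptor subunit gene with enough reads to test, in CPM per kilobase of merged exons (left) or of coding sequence (right), on a log axis; points are libraries, bars the mean ± SD (n = 3 per group). Grin2b is highest in both groups and by both lengths, the 4-AP points of Grin1 and Grin2a sit below and those of Grin3a above their controls, and the controls of Grin2d spread from 0.584 to 3.78 CPM per kilobase of exons.

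Levels were compared between genes per length, although the exons that gave the reads after RNase R are not known. The order below therefore describes these counts and is not a measure of mRNA abundance. Per kilobase of merged exons, the order in the controls was Grin2b at 39.6 ± 1.42, Grin2a at 30.3 ± 2.13, Grin1 at 26.0 ± 3.37, Grin2c at 14.0 ± 0.961, Grin3a at 8.34 ± 2.64 and Grin2d at 2.19 ± 1.60 CPM per kilobase (SD, n = 3). The ranges of neighbours in this order did not overlap. In the 4-AP libraries Grin2b was again first, at 33.1 ± 1.99 CPM per kilobase. Grin2a at 18.5 ± 2.06 and Grin1 at 18.1 ± 2.47 followed with overlapping ranges, so their order was not resolved. Grin3a, at 13.7 ± 0.815 CPM per kilobase, then stood above Grin2c, at 12.2 ± 0.907, in all 3 4-AP libraries, whereas Grin2c stood above Grin3a in all 3 controls. That last order depends on the length used: per kilobase of coding sequence Grin3a was above Grin2c in the controls too, at 30.1 ± 9.50 against 19.0 ± 1.30 CPM per kilobase.

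As shares of the summed level per kilobase of exons, Grin2a made up 19.9, 19.0 and 17.8% in the 4-AP replicates and 25.6, 25.6 and 24.2% in the controls. Grin3a made up 14.0, 14.1 and 14.0% after 4-AP and 8.86, 5.66 and 6.04% in the controls. The shares of Grin2b overlapped, at 33.6 to 34.4% after 4-AP and 30.3 to 34.9% in the controls. Shares of 1 total are not independent of each other and are given as a description.

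The ratio of Grin2a to Grin2b, taken within each library, needs no scaling between libraries. Its height depends on the length used: per kilobase of coding sequence the means were 0.407 after 4-AP and 0.560 in the controls. Per kilobase of exons it was 0.587, 0.566 and 0.519 in the 4-AP replicates 1, 2 and 3 and 0.843, 0.735 and 0.722 in the control replicates. All 3 4-AP ratios lay below all 3 control ratios. The means were 0.557 ± 0.0350 and 0.767 ± 0.0667 (SD, n = 3 each), and the mean log2 ratio was lower by a difference of -0.46, or 0.728-fold. A two-sided exact permutation test gave p = 0.1, the smallest value that 3 against 3 libraries allow, so the test cannot pass the threshold of 0.05 in this design. Leaving out each library in turn kept the log2 difference between -0.50 and -0.39.

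In read counts, Grin2a had 572 of the 1921 reads of the pair in 4-AP replicate 1, or 29.78% (Wilson 95% interval 27.77 to 31.86). The shares were 29.0% (27.43 to 30.62) and 27.25% (25.06 to 29.55) in the 4-AP replicates 2 and 3. They were 37.84% (36.5 to 39.21), 34.65% (33.43 to 35.9) and 34.27% (32.71 to 35.86) in the control replicates 1, 2 and 3. No interval of a 4-AP library reached one of a control library. These intervals and the limits set by a count of 0 treat reads as independent and leave out the spread between samples. PCR copies were not told apart by molecular identifiers, so they may be too narrow even for counting error.

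**Figure D2:**
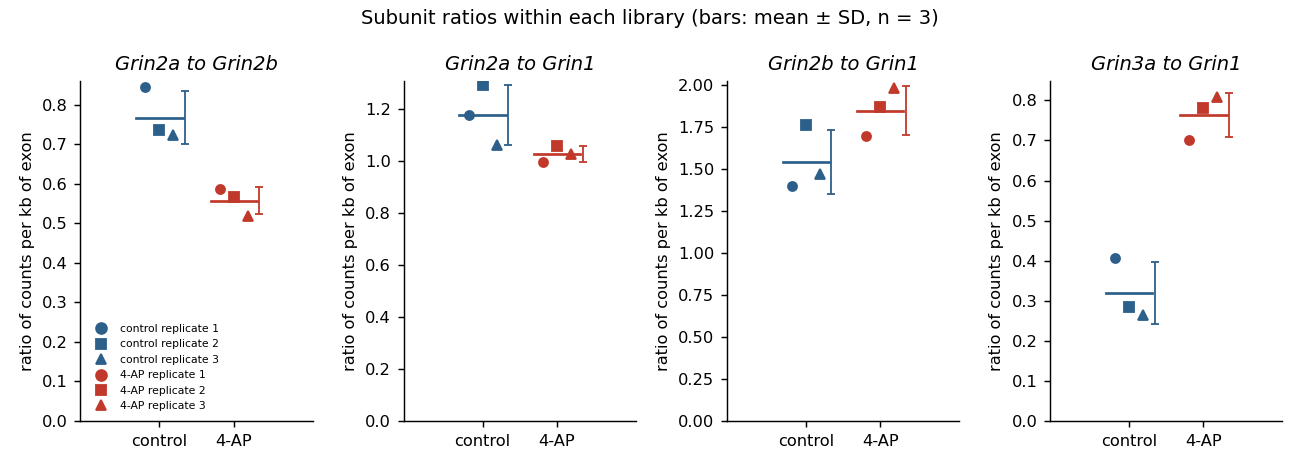
Ratios of counts per kilobase of merged exons between subunit genes within each library, with the y axis starting at 0; points are libraries, bars the mean ± SD (n = 3 per group). The Grin2a to Grin2b ratio is at 0.519 to 0.587 after 4-AP and 0.722 to 0.843 in controls, Grin2b to Grin1 overlaps between the groups, and Grin3a to Grin1 is at 0.701 to 0.808 against 0.264 to 0.408.

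The other ratios are given without a test. Relative to Grin1, per kilobase of exons, Grin2a was at 1.03 ± 0.0300 after 4-AP and 1.18 ± 0.115 in the controls (SD, n = 3 each), with ranges of 0.995 to 1.055 and 1.061 to 1.29 that nearly touched. Grin2b relative to Grin1 was at 1.85 ± 0.144 and 1.54 ± 0.192, and there the ranges overlapped. Grin2c relative to Grin1 also overlapped, at 0.6855 ± 0.133 and 0.549 ± 0.110, as did Grin2d, at 0.115 ± 0.0479 and 0.0804 ± 0.0548. Grin3a did not overlap, at 0.764 ± 0.0558 times Grin1 after 4-AP and 0.319 ± 0.0774 times in the controls. Relative to Grin2a, Grin3a was at 0.705, 0.741 and 0.787 in the 4-AP replicates and 0.347, 0.221 and 0.249 in the controls.

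The AMPA, kainate and delta receptor subunits, the other ionotropic glutamate receptors, gave 0 of 11 members past the test and a median log2 fold change of 0.04. At an unadjusted p under 0.05 edgeR's test gave 3 higher and 1 lower, and DESeq2 called 0. The share of all genes at an unadjusted p under 0.05 is not given here, so such counts, here and below, only describe each list. For scale, Grin2b, at an unadjusted p of 0.0684 by edgeR's test, ranked 1874 by p among 11388 genes. The kainate receptor gene Grik2 was at 0.47 (SE 0.16) and Grik1 at 0.63 (SE 0.21) on the log2 scale. The AMPA receptor genes Gria3, at -0.40 (SE 0.18), and Gria2, at -0.27 (SE 0.16), had the smallest p of the negative members. Without control replicate 1, 1 of the 11 was called higher, Grik1, beside 105 of all genes.

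**Figure D3:**
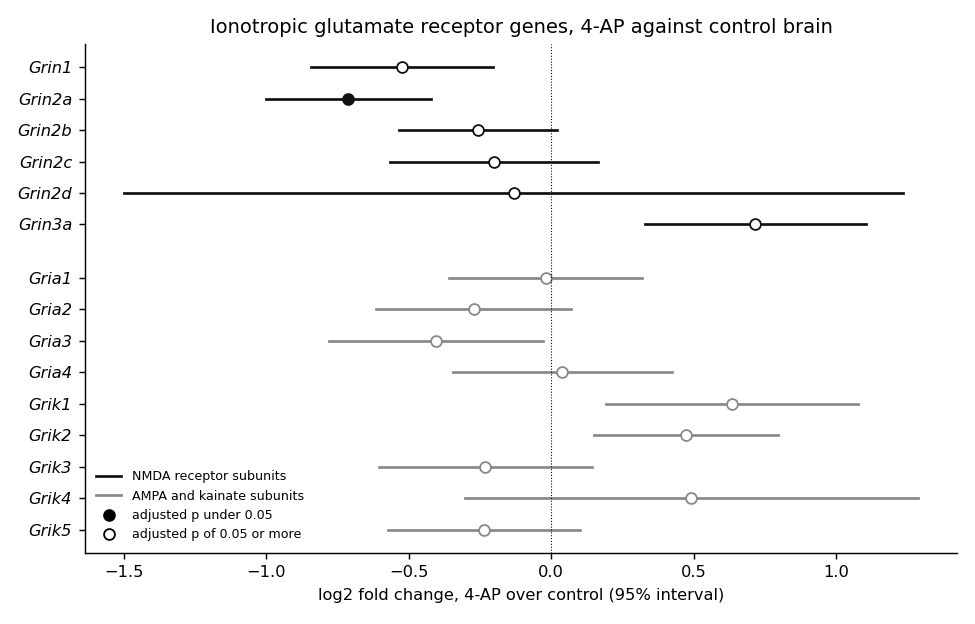
Log2 fold change of the tested NMDA, AMPA and kainate receptor genes, 4-AP over control, with its 95% interval from the quasi-likelihood fit; black marks NMDA receptor subunits, grey AMPA and kainate receptor subunits, and filled points an adjusted p under 0.05. Grin2a, at -0.71, is the only filled point, Grin3a lies at 0.72, and the interval of Grin2d runs from -1.50 to 1.23.

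Like Grin2a, the list of forebrain glutamatergic neuron markers lay lower after 4-AP. All 10 of them had log2 fold changes below 0, 3 of 10 fell, against 0.509% of all genes tested, and their median log2 fold change was -0.79. Their summed level ran from 845 to 1159 CPM in the 4-AP libraries and from 1593 to 1683 in the controls, with no marker at 0. The vesicular glutamate transporter gene Slc17a7 fell by 0.79 on the log2 scale (adjusted p = 0.0142), Nrgn, for a postsynaptic calmodulin-binding protein, by 0.79 (adjusted p = 0.0333), and the transcription factor gene Neurod2 by 0.96 (adjusted p = 0.0379; all by edgeR's test). Without 4-AP replicate 3, control replicate 2 or control replicate 3, 0 of these markers were called, and without 4-AP replicate 2, 1 was. With total counts as the only scaling 7 were called lower, with no filter on low counts 7, and with a minimum of 1 CPM in 3 libraries 5. Of all genes, these settings called 293, 197 and 77 lower, respectively, against 58 under the main settings. The number of genes tested changes with the filter.

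Divided by this marker sum, Grin2a was at 0.322, 0.356 and 0.356 in the 4-AP replicates and 0.350, 0.321 and 0.317 in the controls. The groups overlapped on this scale, and the log2 difference was 0.07. Grin2b divided by the same sum was at 0.759, 0.872 and 0.9515 after 4-AP and 0.575, 0.605 and 0.608 in the controls, without overlap. Grin1 did not overlap either, at 0.175, 0.183 and 0.188 after 4-AP and 0.161, 0.1345 and 0.162 in the controls. Grin3a was at 0.155 to 0.192 against 0.0485 to 0.0831, also without overlap. Slc17a7 was the largest part of the sum, at 658, 583.5 and 430.5 CPM in the 4-AP replicates and 938, 956 and 998 in the controls. Divided instead by the summed pan-neuronal markers, Grin2a did not overlap between the groups, at 0.110, 0.106 and 0.103 against 0.170, 0.132 and 0.154, and Grin2b did, at 0.260 to 0.275 against 0.2495 to 0.2955. Of the 8 pan-neuronal markers 7 were below 0 and 0 passed edgeR's test (2 by DESeq2), with summed levels of 2928 to 3378 CPM after 4-AP and 3441 to 3864 in the controls; at an unadjusted p under 0.05, 2 were lower.

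Of 15 thalamic and hypothalamic markers, 9 had enough reads to test, 8 had log2 fold changes above 0 and 3 rose, the neuropeptide genes Trh, Avp and Oxt. Of all genes tested, 0.334% were called higher. Trh was at 18.6 to 22.8 CPM after 4-AP and 0.446 to 2.59 in the controls, with a fitted log2 difference of 3.76 (SE 0.45) and an adjusted p of 0.000104 in edgeR's test. Avp was at 10.4 to 19.0 CPM after 4-AP and was counted in 1 control only, at 0.778 CPM, and Oxt was at 5.21 to 8.04 CPM with 0 counts in each control (adjusted p = 0.000237 and 0.00349 by edgeR's test). The summed level was 167, 210 and 303 CPM in the 4-AP replicates and 186, 37.1 and 30.8 in the controls, with no marker at 0 in all libraries. Control replicate 1 thus had the highest value of the controls for Grin3a, for Grin2d and for this sum. The largest markers in control replicate 1 were Prkcd, Slc17a6 and Calb2, at 61.6, 38.0 and 37.7 CPM. Trh was at 0.943 CPM there, and Avp and Oxt at 0, so the sum does not follow the called genes in that library. Without that library 6 of these markers were called higher, and with no filter on low counts 5. Of all genes, these settings called 105 and 131 higher, respectively, against 38 under the main settings.

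Other marker lists were read beside the members. Of the 10 astrocyte markers, Slc1a2, the main glial glutamate transporter gene, fell by 0.63 on the log2 scale (adjusted p = 0.0328 by edgeR's test), and 7 were above 0. The summed level was 2265 to 2611 CPM after 4-AP and 2908 to 3050 in the controls. Slc1a2 was the largest part of that sum, at 1138, 1223 and 1035 CPM in the 4-AP replicates and 1703, 1782 and 1758 in the controls. The lower sum thus follows this gene and does not describe the list. Without 4-AP replicate 1 or 3, or control replicate 2 or 3, the call of Slc1a2 was lost. Striatal markers, all 10 above 0, summed to 1391 to 1991 CPM after 4-AP and 414 to 2323 in the controls. GABAergic neuron markers, 5 of 9 below 0, summed to 338 to 466 and 334 to 462 CPM, and cerebellar markers, with 4 of 11 tested and Gabra6 at 0 in every library, to 53.5 to 121 and 43.6 to 79.2 CPM. In these 3 lists 0 genes passed edgeR's or DESeq2's test, and 0 had an unadjusted p under 0.05. Oligodendrocyte markers (7 tested) summed to 2944 to 3995 CPM after 4-AP and 2537 to 3903 in the controls, and hippocampal markers (3 of 7 tested) to 140 to 187 and 101 to 246 CPM; 0 were called by either tool, and 1 of each was higher at an unadjusted p under 0.05. Precursors of oligodendrocytes (3 markers), endothelium (5) and blood cells (3 of 5 tested) had 0 calls by either tool and 0 genes at an unadjusted p under 0.05. The summed microglia markers lay between 454 and 559 CPM after 4-AP and between 372 and 438 in the controls. Most of that sum was Cx3cr1, at 404, 390 and 327.5 CPM in the 4-AP replicates and 251, 279 and 227 in the controls. Of the 7 microglia markers, 4 were above 0 and 3 below, so the sum does not describe the list. With edgeR 0 of 7 were called and 3 were higher at an unadjusted p under 0.05. DESeq2 called 1 higher, beside 82 of all 11388 genes. The part of the brain region taken, of cell types, of RNase R digestion and of library depth in the differences of Grin2a, Grin1 and Grin3a was not tested.

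**Figure D4:**
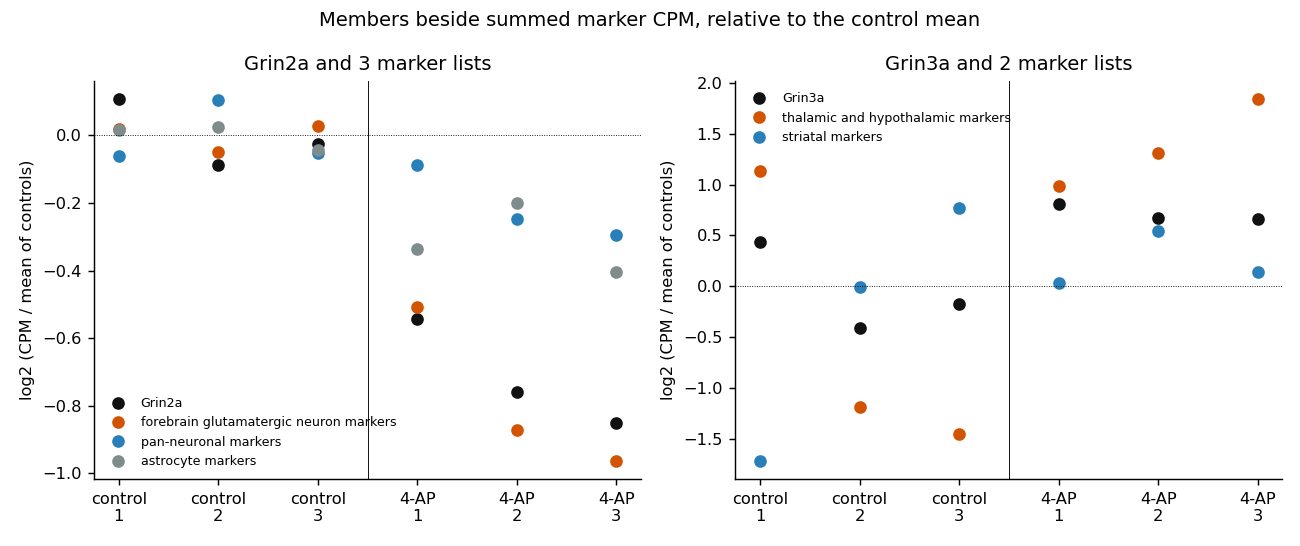
Log2 of the CPM of Grin2a (left) and Grin3a (right) and of the summed CPM of marker lists, each relative to its own control mean, in the 6 libraries; each point is 1 library, and the vertical line separates controls from 4-AP. Slc1a2 is the largest part of the astrocyte sum. Grin2a and the forebrain glutamatergic sum lie close together in each 4-AP library, and Grin3a and the thalamic and hypothalamic sum are both above their control mean in control replicate 1 and in the 3 4-AP libraries. The called members of that sum, Trh, Avp and Oxt, are at 0.943 CPM or less in control replicate 1. Among the 4-AP libraries the sum is highest in replicate 3, at 303 CPM, and Grin3a in replicate 1, at 180 CPM.

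Scaffold proteins hold the receptor in the postsynaptic density. Of the 21 scaffold and anchoring partners, all tested, 0 passed edgeR's test (5 lower at an unadjusted p under 0.05, 1 lower by DESeq2), 16 were below 0 and the median log2 fold change was -0.19. Shank2, a master scaffold of the postsynaptic density, was at -0.64 (SE 0.17, edgeR adjusted p = 0.0630) and Homer2, a linker to metabotropic receptors, at -0.69 (SE 0.21). Ephb2, a receptor tyrosine kinase that binds NMDA receptors, was at 0.49 (SE 0.39), and Homer3 at 0.52 (SE 0.42). With total counts as the only scaling 5 were called lower, a setting that called 293 of all 11388 genes lower.

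Of 17 genes of receptor transport and endocytosis, 0 passed with edgeR (1 lower at an unadjusted p under 0.05) or DESeq2, and 14 were below 0 (median log2 fold change -0.14). Kif17, the kinesin that carries GluN2B along dendrites, was at -0.56 (SE 0.22) and Apba1, an adaptor of that cargo complex, at -0.27 (SE 0.15). The endocytic adaptor genes Ap2s1 and Ap2b1 were at 0.17 (SE 0.21) and 0.02 (SE 0.14). Of the kinases and phosphatases that act on the receptor, 16 of 18 were tested, 0 passed with either tool (3 lower at an unadjusted p under 0.05) and 11 were below 0 (median -0.09). With total counts as the only scaling 2 were called lower, Ptk2b (-0.67) and Cdk5r1 (-0.64), as were 293 of all 11388 genes. Ptk2b, a calcium-dependent tyrosine kinase, was at -0.47 (SE 0.15) and Cdk5r1, the activator of the neuronal kinase Cdk5, at -0.44 (SE 0.14). Cdk5 itself was at 0.13 (SE 0.20) and the casein kinase gene Csnk2a1 at 0.22 (SE 0.17).

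The calcium-dependent targets downstream of the channel had 13 of 19 members below 0 and a median log2 fold change of -0.12, with 0 called by edgeR, 1 higher and 4 lower at an unadjusted p under 0.05, and 2 lower by DESeq2. With total counts as the only scaling 3 were called lower, and with no filter on low counts 2, beside 293 and 197 of all genes. Their summed level was 6837 to 7631 CPM after 4-AP and 8520 to 9467 in the controls. Kalrn, an exchange factor of dendritic spines, was at -0.58 (SE 0.15, edgeR adjusted p = 0.0583). Camk2a, the kinase that binds GluN2B after calcium entry, was at -0.59 (SE 0.17, edgeR adjusted p = 0.0937). Camk2d was at 0.52 (SE 0.21) and the transcription factor gene Creb1 at 0.29 (SE 0.18).

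Co-agonist genes, which make or move D-serine and glycine, had 7 of 11 tested members above 0 and 0 called with either tool (1 higher at an unadjusted p under 0.05; median log2 fold change 0.10). Psat1, of serine synthesis, was at 0.32 (SE 0.15) and Slc7a10, a transporter of D-serine and small neutral amino acids, at 0.53 (SE 0.28), while Srr, the serine racemase gene, was at -0.28 (SE 0.25) and Gldc, of glycine cleavage, at -0.25 (SE 0.27). Their summed level was 434 to 460 CPM after 4-AP and 385 to 410 in the controls.

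Of 13 transcription and chromatin factors linked to Grin genes, Mef2c, an activity-dependent factor of excitatory neurons, fell by 0.72 on the log2 scale (SE 0.16, edgeR adjusted p = 0.0327). Its level was 175, 134 and 127 CPM in the 4-AP replicates and 217, 272 and 230 in the controls, without overlap. The call was lost without 4-AP replicate 2 or 3 or control replicate 2 or 3 (adjusted p between 0.0751 and 0.198 by edgeR's test). Nrf1, a regulator of respiratory and synaptic genes, was at 0.98 (SE 0.32) and the Polycomb gene Suz12 at 0.65 (SE 0.29), and neither passed (adjusted p = 0.194 and 0.318 by edgeR's test). Nrf1 passed with DESeq2 (1.01, adjusted p = 0.0219) and, in edgeR's test, with no filter on low counts (0.95, adjusted p = 0.000786). It also passed edgeR's test without control replicate 1 (1.40, adjusted p = 0.00915) and without replicate 1 of both groups (1.47, adjusted p = 0.0236).

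The genes most like each member were taken by the root mean square difference of log2 CPM, centred on each gene's mean over the 6 libraries, among 4850 genes of mean log2 CPM of at least 5. For Grin2a they were Trim9 (0.059), Fut9 (0.060) and Bhlhe40 (0.061), where the median gene stood at 0.404. Trim9, a brain ubiquitin ligase gene, was at 130, 105 and 102 CPM in the 4-AP replicates and 195.5, 162 and 192 in the controls. For Grin1 they were Crmp1, Pcdh1 and Sema7a (0.057 to 0.067, median gene 0.351), and for Grin2b Rab1b, Sipa1l1 and Ltn1 (0.043 each, median gene 0.245). For Grin3a the nearest were E130308A19Rik (0.061) and the kainate receptor gene Grik1 (0.063), against 0.511 for the median gene. Grik1 was at 65.2, 58.2 and 59.9 CPM in the 4-AP replicates and 52.8, 31.4 and 33.5 in the controls.

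Among the 5 members of that level, Grin1 was the one closest to Grin2a, with a difference of 0.129 at place 36 among all genes. Grin2b was closest to Grin2c, at 0.129, and stood at 0.245 from Grin2a, the distance of the median gene. Grin3a was the farthest member from each of Grin1, Grin2a and Grin2b, at 0.669, 0.761 and 0.569.

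**Figure D5:**
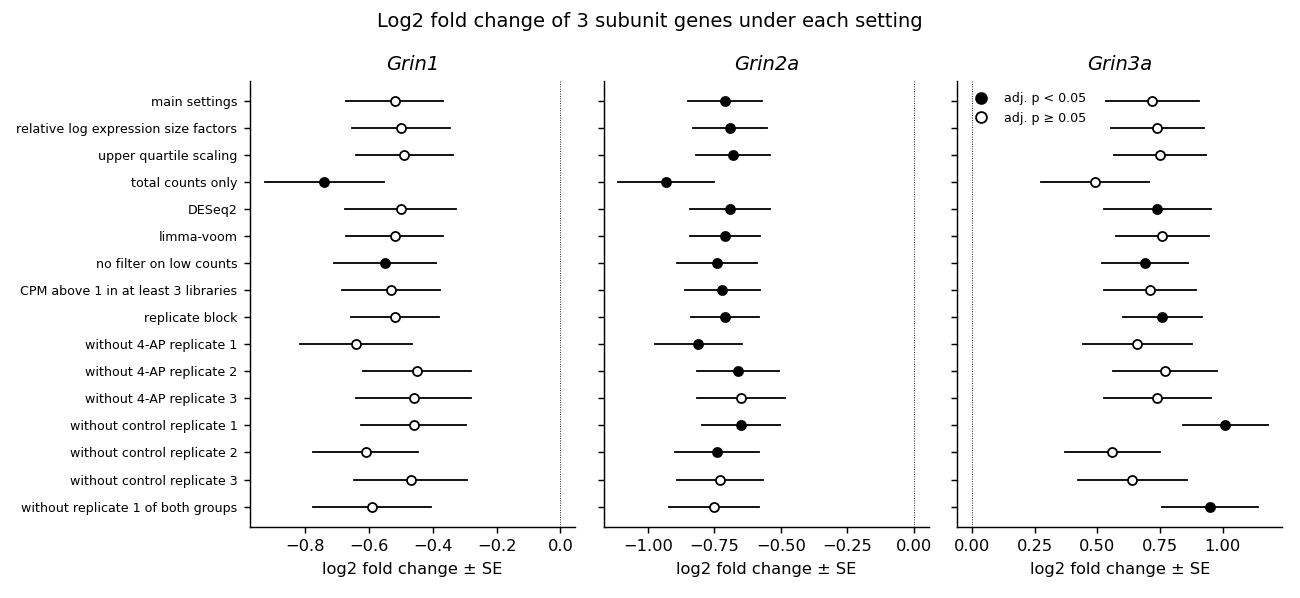
Log2 fold change ± SE of Grin1, Grin2a and Grin3a, 4-AP over control, under the main settings and each alternative; filled points have an adjusted p under 0.05. Grin2a ranges from -0.93 to -0.65 with 12 of 15 alternatives filled, Grin1 from -0.74 to -0.45 with 2 filled, and Grin3a from 0.49 to 1.01 with 5 filled.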

How the data were processed

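The authors deposited raw counts, whole numbers per gene, in 1 table for each of 6 libraries. The submitters' processing notes name STAR 2.5.3a, featureCounts and the mm10 assembly. For the annotation release and the treatment of reads with several matches, the sources used here give nothing. Of 55604 Ensembl identifiers, 54809 matched GENCODE M21 (mm10) without their version; the others held 0.00715% of counts. Every pair of libraries differed by more than sampling noise (lowest chi-square per degree of freedom 7.79). That lowest value was across the groups, between 4-AP replicate 2 and control replicate 3. Control replicate 3 stood at 23.1 and 21.9 from the control replicates 1 and 2, which stood at 8.26 from each other. From the 4-AP replicates 1, 2 and 3 it stood at 19.8, 7.79 and 8.47. No label says that the samples came from separate animals, so p-values measure the spread between these samples.

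The filter was filterByExpr at its minimum count of 10 and minimum total of 15, and libraries were scaled with TMM factors. The test was the robust quasi-likelihood F-test of edgeR 4.0.16 (R 4.3.3) with a term for group, and Benjamini-Hochberg adjustment over 11388 genes and a threshold of 0.05. Standard errors came from the fold change and the F statistic. The biological coefficient of variation was 0.18. The fitting code was run on counts simulated from the dispersions of these data, with group as the only built-in difference. That run checks the code, not whether the model holds for these libraries. Ratios used merged exon lengths and an exact permutation test (scipy 1.17.1). Alternatives were other scalings, DESeq2 1.42.0, limma-voom (limma 3.58.1), other filters, the replicate number as a block and each library left out; coding length and leaving out replicate 1 of both groups were added after seeing the data. The members, 8 pathway lists and 13 marker lists were chosen with earlier results of these data known. The text names all members; of each list the called genes, up to 4 per direction, or otherwise up to 2 per direction with the smallest p (uncalled markers are given only through their list); and the 3 genes most like Grin1, Grin2a, Grin2b and Grin3a. Grik1, Tmem259 and the uncalled markers Cx3cr1, Prkcd, Slc17a6 and Calb2 were named beside their values. DESeq2's adjusted p was not available for Trh, Avp and Oxt. Some genes and sequences that these rules select are not reported here.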

Additional observations from a re-analysis of the deposited data

How the results depend on the processing

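Grin2a kept its direction under all 15 alternatives (log2 fold change -0.93 to -0.65). Its call was lost without 4-AP replicate 3 (-0.65) or control replicate 3 (-0.73), and without replicate 1 of both groups (-0.75); its leave-one-out values ran from -0.81 to -0.65. Grin1 was called with total counts only (-0.74) and no filter on low counts (-0.55). Grin3a was called with DESeq2 (0.74), no filter (0.69), the replicate block (0.76), without control replicate 1 (1.01) and without replicate 1 of both groups (0.95), and its leave-one-out values ran from 0.56 to 1.01. Grin2d turned positive with limma-voom (0.28), the replicate block (0.13), without 4-AP replicate 2 (0.02), without control replicate 1 (0.60) and without replicate 1 of both groups (0.72), and ran from -0.60 to 0.60 over the fits that left out 1 library. With total counts only, Ap2b1 was at -0.19, Ap2s1 at -0.05 and Cdk5 at -0.08; Ap2b1 was also at -0.01 with no filter and -0.07 without 4-AP replicate 3, where Cdk5 was at -0.01. With 1 library left out, Ap2b1 ran from -0.07 to 0.10 and Cdk5 from -0.01 to 0.32. Over all genes, 38 were called higher and 58 lower, against 82 and 111 with DESeq2, 131 and 197 with no filter, 112 and 153 with the replicate block, 293 lower with total counts only, and 28 lower without replicate 1 of both groups. Leaving out 1 library gave 16 to 105 higher and 10 to 54 lower. The cause was not tested. The replicate numbers share only a number in the labels: the correlation of deviations between same-numbered libraries was -0.002, 0.113 and 0.025, and libraries did not all correlate best with their own number. With the replicate block, 7 forebrain glutamatergic markers, 2 pan-neuronal markers and 2 calcium-dependent targets were called lower. The paired sign-flip test of the Grin2a to Grin2b ratio, with the replicate block, gave an exact p of 0.25, the smallest it can give. Leaving out 1 library, the ratio's log2 difference ran from -0.50 to -0.39.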
